A study of Danio rerio with 94 samples.

Results

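2,3- and 2,7-dimethylnaphthalene, which carry both methyl groups at beta carbons, the ring positions that do not touch the ring junction, were compared with 1,2- and 1,8-dimethylnaphthalene, which carry at least 1 methyl group at an alpha carbon next to the junction. The pools were chosen by isomer and exposure day alone, 8 beta-only and 8 alpha-bearing pools of 93 samples in the table, 4 pools per isomer. The rule uses no measured value, though it was set with earlier results of these data known. The series exposed zebrafish embryos (5D WT, a wild-type line) to 1 of 22 chemicals, naphthalene and alkylated naphthalenes, and measured RNA of whole embryos with TempO-Seq, a targeted assay in which pairs of detector oligos are ligated on the RNA and counted. Groups of 8 embryos were held in closed glass vials with 20 µM of a chemical in DMSO from 6 to 24 hours post fertilization (hpf), moved to clean medium, and sampled at 48 hpf as pools of 6 embryos of normal appearance from 1 vial. All 4 isomers were exposed on day 1 of 2 exposure days, at the same dose and for the same time. The vehicle controls were 5 pools, 2 of day 1 and 3 of day 2, of the same line, handled in the same way without a naphthalene. Because embryos of normal appearance were picked, the pools do not represent embryos that had died or were visibly malformed by 48 hpf.

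The isomers of dimethylnaphthalene are low molecular weight aromatic hydrocarbons of petroleum. Planar aromatic compounds are known for binding the aryl hydrocarbon receptor (AhR), a transcription factor that pairs with Arnt and induces the cytochrome P450 enzymes of family CYP1, and cyp1a is its best known target in fish embryos. The paper, citing earlier work, describes naphthalenes as poor ligands of this receptor. The glucocorticoid receptor, the second system followed here, is a ligand-activated transcription factor that induces fkbp5, a co-chaperone which feeds back on the receptor, and klf9.

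Levels are given as log2 CPM, a log2 scale relative to the sample total as adjusted by upper quartile normalization. A small prior count was added, so that a gene without reads stands at -2.39. Reads are here the counts recovered from the deposited values, after the authors' batch correction, and not raw reads. The beta-only pools held 8.69 to 13.5 M reads, the alpha-bearing pools 7.81 to 12.3 M and the controls 8.14 to 12.7 M, and the class means differed by 0.38 M (exact permutation test, two-sided, p = 0.609). Genes without reads numbered 425 to 491 in beta-only and 424 to 499 in alpha-bearing pools (exact permutation p = 0.859), against 454 and 457 in the day 1 and 362 to 381 in the day 2 controls. The libraries of the alpha-bearing isomers carry the numbers 2 and 3 and those of the beta-only isomers 4 and 5, so class and any order of handling cannot be told apart. Of 34 tissue markers looked for, 13 were on the panel, from 8 of 10 tissues, and 0 of these 13 differed between the classes by limma at an adjusted p of 0.05 or at an unadjusted p under 0.05 (largest difference 0.42). Muscle (tnnt3b), skin (krt5) and notochord (col2a1a) markers were read in all 16 pools, while the liver markers fabp10a and tfa had no reads in 7 and 11 of 16 pools.

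The question of the comparison was whether the position of the methyl groups goes with a different transcript profile. Across the 3068 genes no difference between the classes passed the test. With limma fitted to all samples and p-values adjusted by Benjamini-Hochberg, 0 genes (0.0%) were called at 0.05 between beta-only and alpha-bearing pools, and the smallest adjusted p was 0.0667. Before adjustment 231 genes (7.53%) had a p under 0.05, 109 of them higher and 122 lower in beta-only pools, where 5% of the genes is 153. voom, which weights the reads by their precision, called 1 gene and gave 242 at an unadjusted p under 0.05. Genes whose 8 beta-only pools lay wholly above or below the 8 alpha-bearing pools numbered 0 (0.0%).

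The difference between the classes was of the same size as that between the isomers of a class. With sums of squares added over all genes, so that genes of large spread weigh most, the variance among the 16 pools (log2 CPM) was divided. Of it 6.81% lay between the classes, 7.54% between 2,3- and 2,7-, and 7.33% between 1,2- and 1,8-dimethylnaphthalene, each with 1 degree of freedom. The remaining 78.3% lay among pools of the same isomer, or 6.53% per degree of freedom.

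How large a difference could have been missed depended on the level of the gene. The 95% confidence interval of the class difference lay within 2-fold either way for 1929 genes (62.9%). Among the 1192 genes with a mean of at least 5 log2 CPM this held for 1181 (99.1%), with a median half-width of 0.26 on the log2 scale. Among the 1876 genes under that level it held for 748 (39.9%), with a median half-width of 0.90, so that for most genes of low level a 2-fold difference was not excluded. These intervals measure the spread between pools and not between isomers of a class. They therefore bound the difference between the isomers used here, and not an effect of methyl position in general.

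Of the 5 CYP1 genes measured, cyp1a, cyp1b1, cyp1c1 and cyp1c2 had lower means in beta-only than in alpha-bearing pools and cyp1d1 a higher one, and none passed the adjustment over all genes. cyp1a, the xenobiotic-metabolizing oxidase that reports AhR activity, stood at 2.20, 2.24, 2.57 and 2.19 log2 CPM in 2,3- and at 1.68, 1.54, 1.70 and 1.43 in 2,7-dimethylnaphthalene pools. It stood at 5.70, 5.60, 5.31 and 5.55 log2 CPM in 1,2- and at 3.10, 2.99, 3.23 and 2.31 in 1,8-dimethylnaphthalene pools. The controls held -2.39 (no reads) and 1.35 on day 1 and 0.08, 3.17 and 2.86 on day 2. All 4 pools of 1,2-dimethylnaphthalene lay above every other pool of the comparison. The 1,8-isomer lay next, its lowest pool overlapped the highest of the 2,3-isomer (2.57), and the controls ran from below every exposed pool up to 3.17, so they overlapped all isomers but the 1,2-isomer.

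The class difference of cyp1a was -2.28 (beta-only minus alpha-bearing, standard error 0.68, 95% confidence interval -3.64 to -0.93), a 4.86-fold lower level, and 8 of 8 beta-only pools lay below the alpha-bearing median. Its adjusted p by limma was 0.327, so it was not called. This p rests on the spread of all 23 groups, and cyp1a varied much less among replicate pools of the 4 isomers (SD 0.25, 12 degrees of freedom) than among those of the other groups (SD 1.51, 58 degrees of freedom). With only the 4 isomers in the fit, an alternative to the test used throughout, cyp1a was the 1 gene called (0.0326% of those tested, adjusted p = 3.50e-07 by limma). An exact permutation test over the 16 pools, added after the values were seen and run for 20 genes, gave an unadjusted p of 0.000311. It shuffled pools without regard to isomer, so this p, like those of limma, measures the spread between pools and not between isomers of a class. With so few isomers per class, whether the difference goes with methyl position rather than with a single isomer was not tested. The reads behind these values were few, 44 to 62 per pool in 2,3-, 27 to 32 in 2,7-, 391 to 502 in 1,2-, 49 to 95 in 1,8-dimethylnaphthalene and 0 to 86 in control pools.

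The other CYP1 genes on the panel showed smaller differences with overlapping pools. cyp1b1, an oxidase of steroids and aromatic hydrocarbons, averaged 3.10 ± 0.50 log2 CPM in beta-only and 3.90 ± 0.37 in alpha-bearing pools (SD, n = 8 each), a difference of -0.80 (95% confidence interval -1.42 to -0.17, adjusted p = 0.581 by limma). cyp1c1, a CYP1 enzyme found in fish, averaged 3.60 ± 0.77 log2 CPM in beta-only and 4.55 ± 0.56 in alpha-bearing pools, a difference of -0.95 (-1.54 to -0.36, adjusted p = 0.343 by limma). For cyp1c2 the difference was -0.68 (-1.41 to 0.04), and for cyp1d1 0.20 with a standard error of 0.21. For cyp1c1 the control mean (4.43) lay near that of the alpha-bearing pools, and for cyp1b1 the control mean (2.73) lay near that of the beta-only pools.

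**Figure D1:**
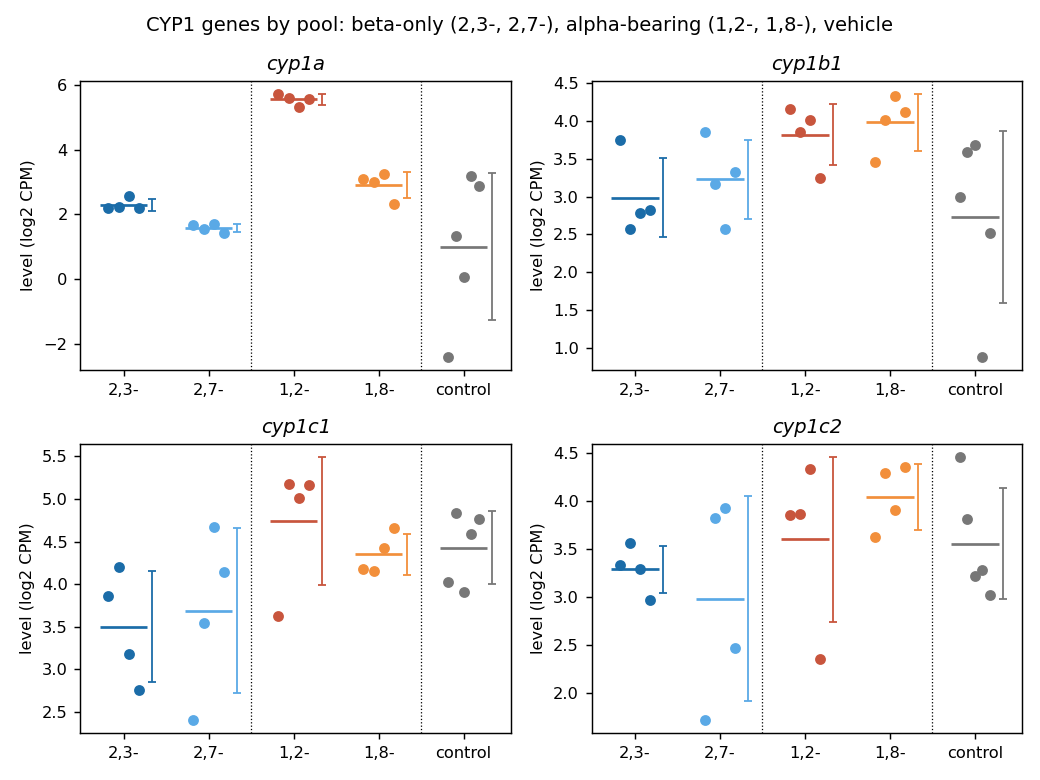
Levels of 4 CYP1 genes (log2 CPM, vertical axes) in each pool of 2,3- and 2,7- (beta-only, blue), 1,2- and 1,8-dimethylnaphthalene (alpha-bearing, red and orange) and vehicle (grey, 5 pools). Points are pools, horizontal lines means and bars SDs, and for cyp1a the pools of 1,2-dimethylnaphthalene (5.31 to 5.70) lie above all the others.

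Of 23 genes listed for the AhR response, 15 were measured and 0 were called between the classes. Of these 15, 4 were higher and 9 lower in beta-only pools, with a median difference of -0.07 against 0.0003 over all genes, and 3 (cyp1a, cyp1b1 and cyp1c1) had an unadjusted p under 0.05 by limma, 20.0% against 7.53% of all genes. The receptor gene ahr2, which mediates most AhR responses of zebrafish embryos, differed by -0.18 (95% confidence interval -0.56 to 0.20). The repressors ahrra and ahrrb had no reads in any of the 16 pools, so their differences were 0. tiparp, an AhR target that modifies the receptor, differed by 0.03, and nqo1, a quinone reductase, by -0.06.

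The gene with the smallest p between the classes was fabp11b, which encodes a fatty acid binding protein, and the isomer that set it apart was 1,2-dimethylnaphthalene. It stood at 9.96, 10.40, 10.30 and 10.43 log2 CPM in 2,3- and at 10.49, 9.99, 10.42 and 10.06 in 2,7-dimethylnaphthalene pools. It stood at 9.36, 9.23, 9.59 and 9.49 log2 CPM in 1,2- and at 10.08, 9.95, 10.18 and 9.93 in 1,8-dimethylnaphthalene pools, and at 10.72, 10.20, 10.41, 10.69 and 10.94 in controls. The pools of the 1,2-isomer lay below all others, and those of the 1,8-isomer overlapped both beta-only isomers. The class difference was 0.53 (standard error 0.12, 95% confidence interval 0.30 to 0.76, adjusted p = 0.0667 by limma). By limma it passed at adjusted p = 0.0410 with voom, 0.0270 with only samples of day 1, 0.0308 with a mean-variance trend and 0.0241 with log2(CPM + 4). Settings in which it did not pass included samples centred on their medians (0.123), only the 4 isomers (0.170) and genes of at least 1 CPM (0.0518). It was called without 1,8-dimethylnaphthalene (0.000611) and not without 1,2-dimethylnaphthalene. With single pools left out its adjusted p ran from 0.0221 to 0.213 and it was called 2 times of 16, without 2,3-dimethylnaphthalene pool B and without 2,7-dimethylnaphthalene pool C.

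Between single isomers fabp11b was the only gene called, in 2 of the 6 pairs compared, with p-values adjusted over all genes of the 6 pairs together. It was higher in 2,3- than in 1,2-dimethylnaphthalene by 0.86 on the log2 scale (95% confidence interval 0.53 to 1.18, adjusted p = 0.0356 by limma), the 1 gene (0.0326%) called for this pair. It was also higher in 2,7- than in 1,2-dimethylnaphthalene by 0.82 (0.50 to 1.15, adjusted p = 0.0369), again the 1 gene (0.0326%) called. Against 1,8-dimethylnaphthalene the differences were 0.24 (-0.09 to 0.57) for the 2,3-isomer and 0.21 (-0.12 to 0.53) for the 2,7-isomer, and 2,7- and 2,3-dimethylnaphthalene differed by -0.03 (-0.36 to 0.30). Inside the alpha-bearing class 1,8- exceeded 1,2-dimethylnaphthalene by 0.62 (0.29 to 0.95), which did not pass (adjusted p = 0.273).

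Both fabp11b calls were close to the threshold. Each was lost without 1,2-dimethylnaphthalene pool B, C or E or 2,3-dimethylnaphthalene pool C, D or E, and the second also without 2,7-dimethylnaphthalene pool B or D, with adjusted p from 0.0133 to 0.139 and from 0.0211 to 0.121 over all single pools left out. Both were also lost with samples centred on their medians (adjusted p = 0.0870 and 0.0961) and with only the 4 isomers in the fit (0.116 and 0.139).

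The remaining 4 pairs gave 0 calls each by limma (0.0%). Without adjustment, 211 genes had a p under 0.05 for 2,3- minus 1,8-, 301 for 2,7- minus 1,8-, 245 for 2,7- minus 2,3- and 240 for 1,8- minus 1,2-dimethylnaphthalene, and voom called 0, 0, 0 and 1. The pairs within a class thus gave counts inside the range of the pairs between classes, which were 182 for 2,3- minus 1,2- and 250 for 2,7- minus 1,2-dimethylnaphthalene. Pools of a pair did not overlap in 73 genes (2.38%) for 2,3- minus 1,2-, 85 (2.77%) for 2,3- minus 1,8-, 115 (3.75%) for 2,7- minus 1,2- and 96 (3.13%) for 2,7- minus 1,8-dimethylnaphthalene. Within a class they did not overlap in 78 (2.54%) for 2,7- minus 2,3- and 104 (3.39%) for 1,8- minus 1,2-dimethylnaphthalene. The interval of the difference lay within 2-fold for 51.1% to 52.2% of all genes and for 95.1% to 96.4% of those with a mean of at least 5 log2 CPM.

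Pair by pair, the order of the cyp1a means was 1,2-, 1,8-, 2,3- and 2,7-dimethylnaphthalene, and the largest difference was -3.96 for 2,7- minus 1,2- (95% confidence interval -5.87 to -2.04, adjusted p = 0.132 by limma). 2,3- minus 1,2- was -3.24 (-5.16 to -1.32) and 1,8- minus 1,2- was -2.63 (-4.55 to -0.71), neither of which passed. The other 3 differences had intervals that included 0, at -0.61 (-2.53 to 1.31) for 2,3- minus 1,8-, -1.32 (-3.24 to 0.59) for 2,7- minus 1,8- and -0.71 (-2.63 to 1.20) for 2,7- minus 2,3-dimethylnaphthalene. With only the 4 isomers in the fit, cyp1a was called in the 3 pairs with the 1,2-isomer and in 2,7- minus 1,8- (adjusted p = 0.0182 by limma), the 1 gene (0.0326%) called in each. In the exact permutation test of 4 against 4 pools the smallest p possible is 0.0286. It is reached where the pools of a pair do not overlap, as in 2.38% to 3.75% of all genes per pair. For cyp1a, whose values had been seen, 5 of the 6 pairs reached it. The exception was 2,3- minus 1,8-dimethylnaphthalene (exact permutation p = 0.0571, unadjusted). The pairs share pools and are not independent of each other.

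**Figure D2:**
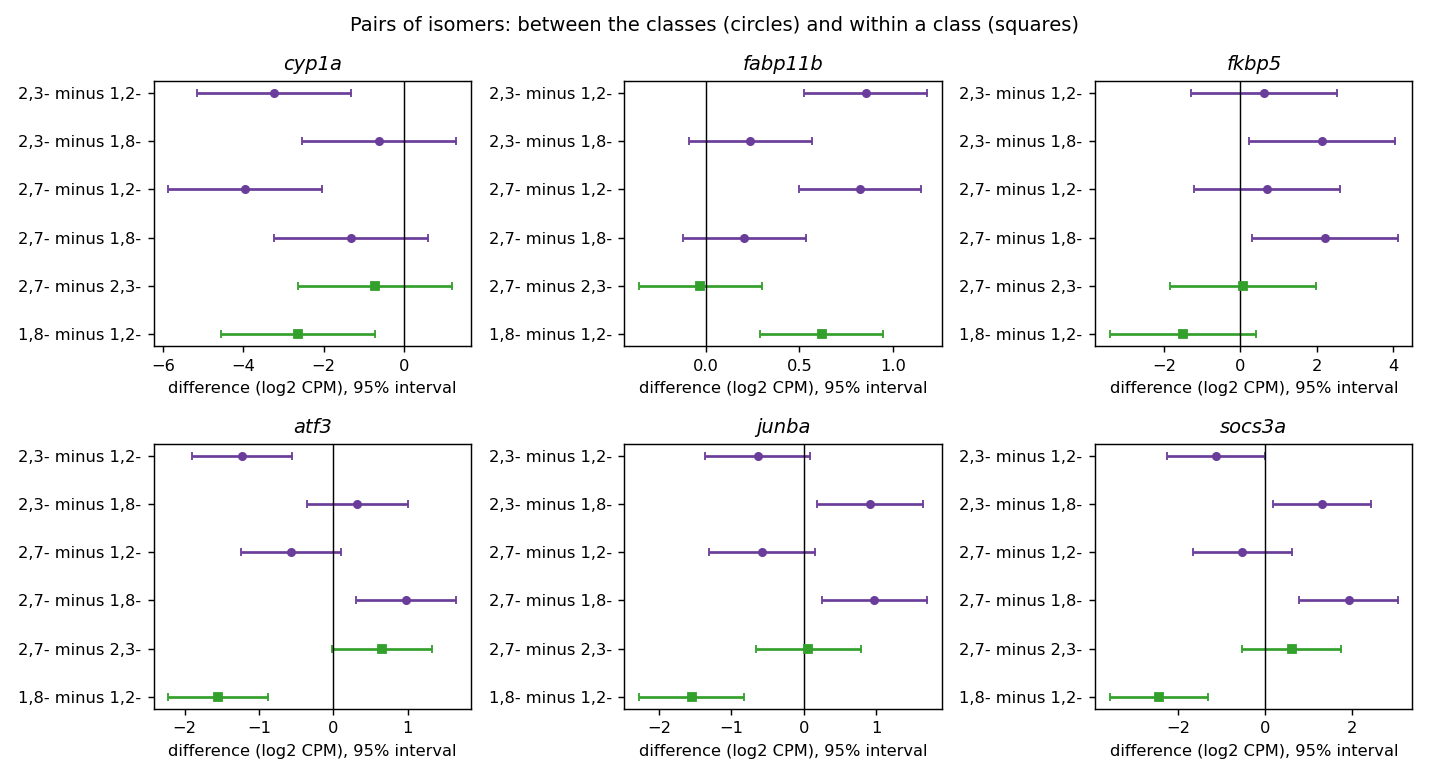
Differences between pairs of isomers (log2 CPM, horizontal axes) with 95% confidence intervals of limma for 6 genes, between the classes (circles) and within a class (squares), the first-named isomer minus the second. For fabp11b the 2,3- minus 1,2- (0.86) and 2,7- minus 1,2- (0.82) differences were called, and for atf3, junba and socs3a the lowest value is 1,8- minus 1,2-dimethylnaphthalene.

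Among the 20 genes with the smallest p between the classes, of which none passed, 10 were higher and 10 lower in beta-only pools. The higher ones included tnfaip3, which encodes an inhibitor of NF-kB signalling, at 6.38 ± 0.25 log2 CPM in beta-only and 5.76 ± 0.42 in alpha-bearing pools (SD, n = 8 each), a difference of 0.62 (95% confidence interval 0.31 to 0.92, adjusted p = 0.151 by limma). ube2a, a ubiquitin-conjugating enzyme, differed by 0.32 (0.16 to 0.48, adjusted p = 0.151), with 6 of 8 beta-only pools above every alpha-bearing pool. lgi1b, which encodes a secreted protein of neurons, differed by 0.48 (0.23 to 0.73), with 7 of 8 above every alpha-bearing pool. The 20 genes were picked by p from this same comparison, a choice that by itself favours pools lying apart. The share of all genes with such a separation was not counted. Of the 20 genes only fabp11b, as above, and tnfaip3 were called with a single pool left out, the second without 1,2-dimethylnaphthalene pool B (adjusted p = 0.0238).

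Of 29 measured genes of the list for liver, pancreas and gut, 15 were higher and 12 lower in beta-only pools, with a median of 0.08 and an unadjusted p under 0.05 in 3 (10.3% against 7.53% of all genes). masp2, a protease of the lectin pathway of complement, averaged 3.46 ± 0.51 log2 CPM in beta-only and 1.93 ± 1.68 in alpha-bearing pools, and 1 pool of 1,8-dimethylnaphthalene held 1 read. tdo2b, a tryptophan-degrading dioxygenase, stood at 1.86 log2 CPM in the median beta-only and -1.71 in the median alpha-bearing pool. In 1,2- and 1,8-dimethylnaphthalene its reads were 1, 0, 17 and 7 and 1, 0, 33 and 1, and in 2,3-dimethylnaphthalene 1 of 4 pools had none. Neither difference passed (adjusted p = 0.327 for both by limma), and the liver markers fabp10a and tfa, near 0 reads, differed by 0.12 and 0.18, and apoa1a, an apolipoprotein read in all pools, by -0.18. In RNA of whole embryos fewer cells of a type and less RNA per cell cannot be told apart.

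Genes lower in beta-only pools included ctsla, a lysosomal cathepsin, at 11.83 ± 0.31 against 12.30 ± 0.23 log2 CPM in alpha-bearing pools, a difference of -0.47 (95% confidence interval -0.71 to -0.22, adjusted p = 0.199). lig1, the DNA ligase of replication, differed by -0.50 (-0.81 to -0.20) and pax3a, a transcription factor of neural crest and muscle precursors, by -0.39 (-0.64 to -0.15), both not called. tgfbi, a matrix protein, differed by -0.51 (-0.81 to -0.20) and nmt1a, an N-myristoyltransferase, by -0.60 (-0.98 to -0.22). cryz, a quinone reductase, had reads mainly in the 1,8-isomer, with 0, 0, 1 and 10 reads in 2,3-, 0 in every pool of 2,7-, 0, 1, 0 and 31 in 1,2- and 23, 38, 22 and 22 in 1,8-dimethylnaphthalene pools. The other genes of the 20 were sla1a, stimate, vmac, rbm12b, slc35b1, fgfbp2b, cyp1a and cyp1c1, with differences between -2.28 and 2.06.

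**Figure D3:**
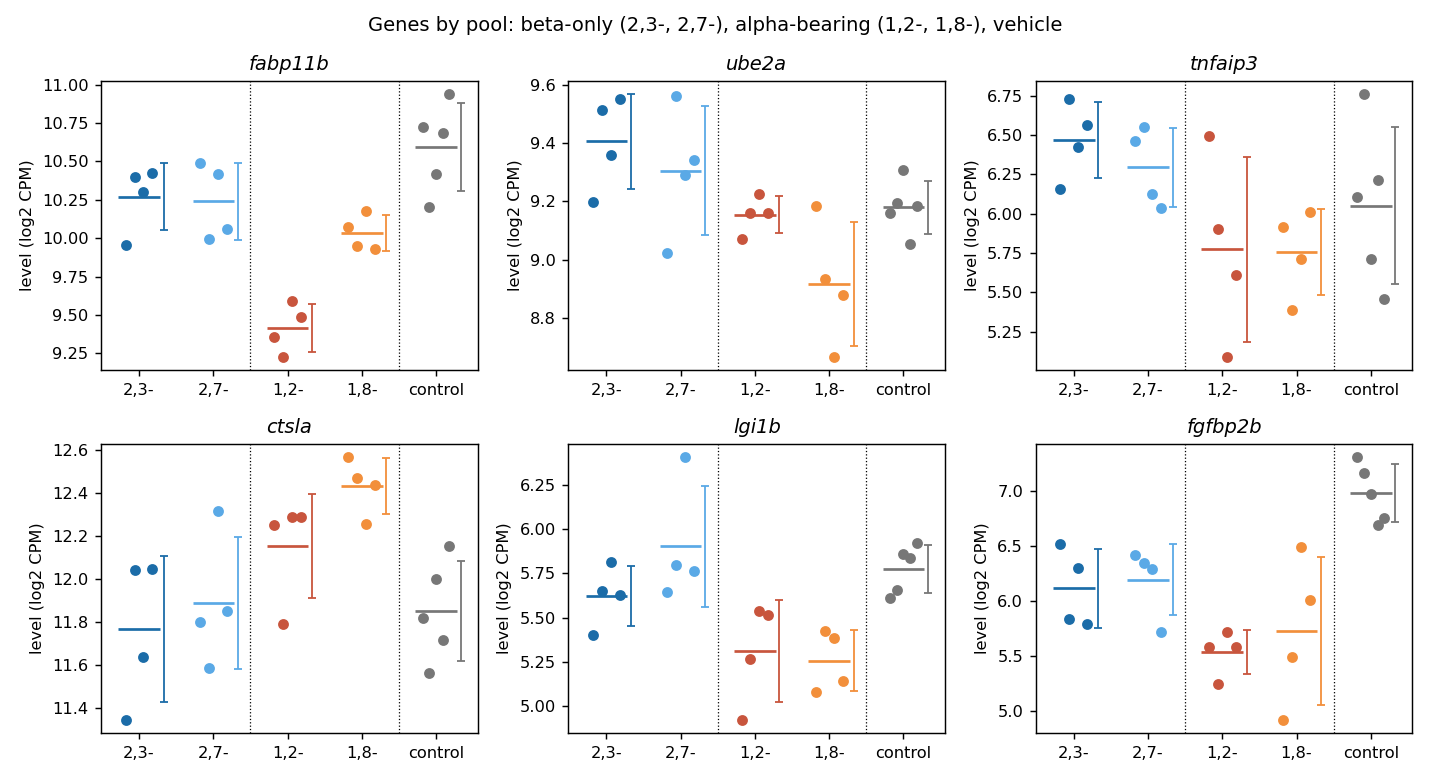
Levels (log2 CPM, vertical axes) of 6 of the 20 genes with the smallest p between the classes, in each pool of 2,3- and 2,7- (blue), 1,2- and 1,8-dimethylnaphthalene (red and orange) and vehicle (grey, 5 pools), with means (lines) and SDs (bars). For fabp11b the 1,2-dimethylnaphthalene pools (9.23 to 9.59) lie below all others, and in the other panels the classes overlap.

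**Figure D4:**
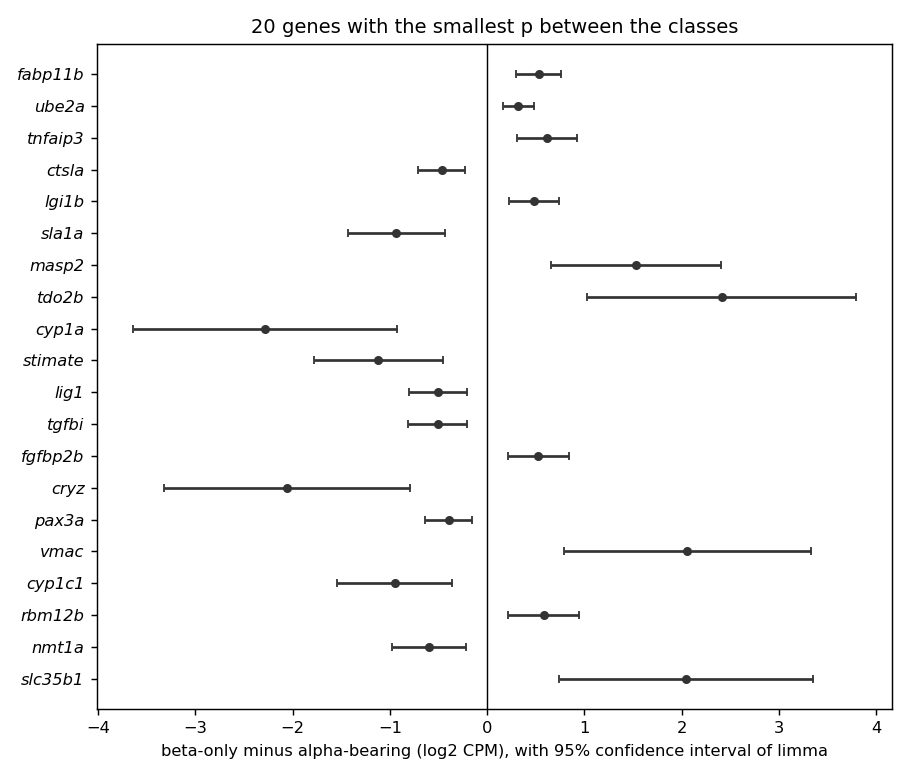
Beta-only minus alpha-bearing difference (log2 CPM, horizontal axis) with the 95% confidence interval of limma for the 20 genes with the smallest p, ordered by p from the top. The narrowest intervals belong to genes of high level such as ube2a (0.16 to 0.48), and no gene passed an adjusted p of 0.05.

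No difference between the classes in glucocorticoid receptor genes passed the test. Of 18 measured genes of this response, 16 were lower than the control mean in 2,3-, 14 in 2,7-, 14 in 1,2- and 16 in 1,8-dimethylnaphthalene, against the same 5 control pools. Over all 3068 genes the counts below control were 1694, 1664, 1672 and 1739. Other lists varied, with 20, 19, 19 and 18 of 23 for hedgehog and cartilage, but 38, 42, 31 and 36 of 82 for cell cycle and 9, 5, 7 and 9 of 19 for oxidative stress. fkbp5 averaged 3.55 ± 0.96 log2 CPM in beta-only, 2.13 ± 1.28 in alpha-bearing (SD, n = 8 each) and 5.03 ± 0.61 in control pools (n = 5). Its pools read 3.84, 4.09, 3.30 and 2.84 in 2,3-, 5.18, 1.85, 3.69 and 3.63 in 2,7-, 3.45, 2.97, 2.29 and 2.86 in 1,2- and 0.21, 3.17, 0.22 and 1.93 in 1,8-dimethylnaphthalene. The class difference was 1.42 (95% confidence interval 0.07 to 2.77, adjusted p = 0.629 by limma), and the classes overlapped. klf9, a transcription factor induced by glucocorticoids, differed by 1.25 (-0.05 to 2.55), klf11a, of the same family, by 0.13 (-0.17 to 0.43), and bcl6aa, a transcriptional repressor, by 0.36 (0.09 to 0.64, adjusted p = 0.581). Of the 18 genes (32 listed), 0 were called between the classes, 12 being higher and 6 lower in beta-only pools, with a median difference of 0.13 against 0.0003 over all genes and an unadjusted p under 0.05 in 2 (11.1% against 7.53%).

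Immediate early genes are transcribed within minutes of a stimulus, and 1,8-dimethylnaphthalene had the lowest means of several of them. atf3 and junba, subunits of AP-1 type transcription factors that were picked here after their values were seen, and socs3a, an inhibitor of cytokine signalling, were examined by pool. atf3 stood at 5.02, 5.51, 3.77 and 4.79 log2 CPM in 1,8- and at 6.56, 5.99, 6.14 and 6.59 in 1,2-dimethylnaphthalene, without overlap, and the beta-only pools spanned 4.62 to 6.40. The differences of 1,8- minus 1,2- were -1.55 (95% confidence interval -2.22 to -0.87, adjusted p = 0.120 by limma) for atf3, -1.55 (-2.28 to -0.82, adjusted p = 0.132) for junba and -2.43 (-3.57 to -1.30, adjusted p = 0.132) for socs3a, none of them called. atf3 was called without 1,8-dimethylnaphthalene pool B (adjusted p = 0.0211, against 0.0211 to 0.287 over all single pools left out). Between the classes the same genes differed by -0.12 (-0.60 to 0.35), 0.17 (-0.35 to 0.68) and 0.39 (-0.41 to 1.19), and the value for junba moved from 0.03 without 1,8-dimethylnaphthalene pool A to 0.30 without its pool D. Of 19 measured immediate early genes, 0 were called between the classes and 0 between 1,8- and 1,2-dimethylnaphthalene. In that pair 4 were higher and 13 lower, with a median of -0.44 against 0.00 over all genes and an unadjusted p under 0.05 in 5 (26.3% against 7.82%). For 2,7- minus 1,8-dimethylnaphthalene 14 were higher and 4 lower, with a median of 0.41 and 7 at that threshold (36.8% against 9.81%). For 2,3- minus 1,8-dimethylnaphthalene 9 were higher and 8 lower, with a median of 0.0 and 4 at that threshold (21.1% against 6.88%). Between the classes 8 were higher and 10 lower, with a median of -0.06 and 3 (15.8% against 7.53%). Below the control mean were 15 of the 19 in 2,3-, 11 in 2,7-, 13 in 1,2- and 17 in 1,8-dimethylnaphthalene. Whether these shares differ from each other was not tested.

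The other lists were described in the same way, and 0 members of any of the 20 lists were called between the classes. Of 82 measured cell cycle genes, 30 were higher and 52 lower in beta-only pools, with a median of -0.06. Over all 3068 genes 1540 were higher and 1429 lower. An unadjusted p under 0.05 by limma was found in 8 cell cycle genes (9.76% against 7.53% of all genes). Among them were rrm1, a subunit of ribonucleotide reductase (-0.31), mki67, a proliferation marker (-0.17), and tk1, thymidine kinase (0.36). Of 27 heat shock genes, 10 were higher and 17 lower with a median of -0.11, and 3 (11.1%) were under that p. Of these genes hsp70l, a stress-inducible chaperone, differed by -1.08 (95% confidence interval -2.10 to -0.05). Of 10 skeletal muscle genes, 7 were higher and 3 lower, and 1 (10.0%) was under that p. In this list ckmt2a, a mitochondrial creatine kinase, differed by 1.30 (0.38 to 2.21). The medians of the remaining lists lay between -0.07 (hedgehog and cartilage, 23 measured) and 0.13 (circadian clock, 12 measured).

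Against the vehicle each isomer had few differentially expressed genes (DEGs, adjusted p of at most 0.05 and a log2 fold change (log2FC) of at least 1 either way). 2,3-dimethylnaphthalene had 3 DEGs (0.0978% of those tested), 2,7-dimethylnaphthalene 17 (0.554%), and 1,2- and 1,8-dimethylnaphthalene 11 each (0.359%). Without the fold threshold the calls were 19 (0.619%), 66 (2.15%), 65 (2.12%) and 32 (1.04%) in that order. The 4 comparisons share the control pools, of which 3 of 5 are of day 2, unlike the isomers. Together they gave 42 calls in 37 genes, of which 34 were DEGs of 1 isomer, 1 of 2 isomers, 2 of 3 isomers and 0 of all 4. A gene past the threshold in 1 isomer is not thereby shown to differ from the others. cygb1, a globin called for 2,7-dimethylnaphthalene alone, had log2FCs of 1.01 in 2,3-, 1.18 in 2,7-, 0.98 in 1,2- and 0.99 in 1,8-dimethylnaphthalene, and the direct pairs called fabp11b alone. The 2 called for 3 isomers were chek2, a kinase of the DNA damage checkpoint, with log2FCs of 1.23 in 2,3-, 1.12 in 2,7-, 1.53 in 1,2- and 1.07 in 1,8-dimethylnaphthalene, and ctss2.1, a lysosomal cathepsin, with 1.33, 2.04, 2.17 and 2.38 in the same order. Neither was called between the classes (-0.13 with a 95% confidence interval of -0.60 to 0.34 for chek2, and -0.58 with -1.27 to 0.11 for ctss2.1), and for ctss2.1 a 2-fold difference was not excluded.

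With only samples of day 1 in the fit the DEGs were 17 for 2,3-, 22 for 2,7-, 28 for 1,2- and 17 for 1,8-dimethylnaphthalene, so the order of the isomers by number changed. With all samples fitted, the 17 DEGs of 2,7-dimethylnaphthalene were led by slc2a1b, a facilitated glucose transporter that rose by a log2FC of 3.30 (adjusted p = 0.00058 by limma), and tgfbi, which fell by 1.09 on the log2 scale (adjusted p = 0.000629). ihha, which encodes a Hedgehog signal of the growing skeleton, was a DEG of the same isomer alone, though its mean lay below control in every isomer. Its reads were 0, 0, 5 and 0 in 2,7- and 7, 26, 55 and 67 in 2,3-dimethylnaphthalene pools. They were 22, 1, 23 and 26 in 1,2- and 5, 0, 91 and 43 in 1,8-dimethylnaphthalene pools, and 36, 69, 72, 62 and 40 in control pools. ihha was called in no direct pair of isomers. For slc2a1b the log2FCs of the other isomers were 1.04 in 2,3-, 1.56 in 1,2- and 2.12 in 1,8-dimethylnaphthalene, none of them called. Directly compared, 2,7- and 2,3-dimethylnaphthalene differed in slc2a1b by 2.27 (95% confidence interval 1.03 to 3.51, adjusted p = 0.273) and did not pass. The 2,7-isomer exceeded 1,2- by 1.74 and 1,8-dimethylnaphthalene by 1.18 in this gene, neither of them called. The 3 DEGs of the 2,3-isomer were chek2, egr1, an immediate early transcription factor (log2FC -1.59), and phkb, a subunit of phosphorylase kinase (log2FC -2.49).

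cyp1a was a DEG of 1,2-dimethylnaphthalene with a log2FC of 4.53 (standard error 0.91, adjusted p = 0.00233 by limma) and of no other isomer of the 4, the log2FCs being 1.29 in 2,3-, 0.57 in 2,7- and 1.90 in 1,8-dimethylnaphthalene. fgfbp2b, which encodes a fibroblast growth factor binding protein, was the 1 DEG of both alpha-bearing isomers and of neither beta-only isomer. Its log2FC was -0.87 in 2,3- and -0.79 in 2,7-, where its adjusted p was under 0.05 (0.0367 and 0.0302 by limma) but the fold under 2, and -1.45 in 1,2- and -1.26 in 1,8-dimethylnaphthalene. Its class difference of 0.53 (95% confidence interval 0.21 to 0.84) did not pass (adjusted p = 0.327), and 8 of 8 beta-only pools lay above the alpha-bearing median. In the 1,8-isomer the immediate early genes csrnp1a (log2FC -1.18), ier2b (-1.29) and junba (-1.30) fell, as did socs3a (-2.52), fkbp5 (-3.65) and nr1d1, a repressor of the circadian clock (-2.51). Of the 37 DEGs, 0 differed between the classes at an adjusted p of 0.05 and 15 at an unadjusted p under 0.05 by limma, where the share over all genes was 7.53%. The DEGs were picked from the same isomer pools that form the class comparison. That choice by itself raises the number of small class p-values among them, so the 15 are no result about the classes.

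The DEG counts depended on the controls. The 42 calls were 85 with the 2 control pools of day 1 only, 22 without control day 1 pool A, 21 with only the 4 isomers and the controls in the fit, and 27 on the scale of log2(CPM + 4). The calls of fabp11b, cyp1a, fgfbp2b and klf11a in 1,2-dimethylnaphthalene and of slc2a1b, ihha and tcerg1a, a transcription elongation regulator, in 2,7-dimethylnaphthalene were lost under none of 32 alternatives, while the 3 of 2,3-dimethylnaphthalene were lost under 10 to 13 of them. These losses were followed for up to 5 DEGs per isomer. In 1,8-dimethylnaphthalene socs3a was lost under 5, among them voom, day 1 controls and without its pool A. csrnp1a was lost under 4, among them day 1 controls and without its pool B or D, and fgfbp2b under 1, without its pool A.

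**Figure D5:**
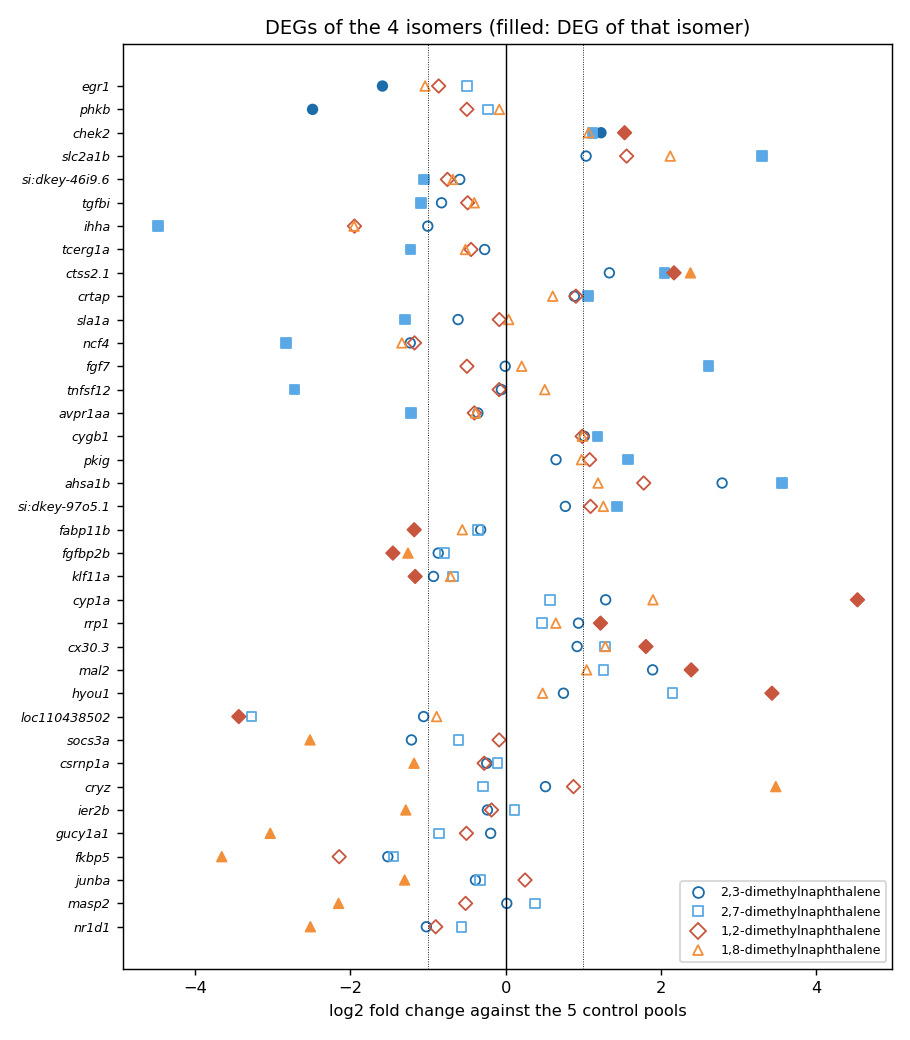
log2FC against the 5 control pools (horizontal axis, log2 scale) of the 37 DEGs in each isomer, 2,3- (circles), 2,7- (squares), 1,2- (diamonds) and 1,8-dimethylnaphthalene (triangles), filled where the gene was a DEG of that isomer. Most genes are filled for 1 isomer, and dotted lines mark a 2-fold change.

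The same division was applied to the other chemicals, which share no exposed pool with the 4 isomers but differ in the number and size of the alkyl groups as well as in position. On day 1, 2,6-diethyl- and 2-isopropylnaphthalene (8 pools) against 5 chemicals with an alpha group (20 pools) gave 1 called gene (0.0326%). This was angptl4, a secreted inhibitor of lipoprotein lipase, higher by 0.40 (adjusted p = 0.0266 by limma). Before adjustment 331 genes (10.8%) had a p under 0.05 by limma in this day 1 comparison, and voom called 2. In the dimethyl isomers angptl4 differed by 0.20 (95% confidence interval -0.003 to 0.40). On day 2, 4 beta-only chemicals (16 pools) against 6 with an alpha group (24 pools) gave 0 called genes (0.0%) by limma, 170 at an unadjusted p under 0.05 and 0 by voom.

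Of the 20 genes with the smallest p in the dimethyl isomers, 9 had the same sign in the other day 1 chemicals and 8 in the day 2 chemicals. cyp1a differed by -0.04 in the first and by 0.24 in the second set, and fabp11b by 0.26 and 0.07, none of them called. A test of the difference between the sets called 0 of 3068 genes on either day, the smallest adjusted p being 0.0786 on day 1 and 0.0722 on day 2 by limma, while 236 and 226 genes had a p under 0.05 before adjustment and voom called 1 gene for each. Across all 22 chemicals, cyp1a was highest by its mean in 1,2-dimethylnaphthalene (5.54 ± 0.16 log2 CPM, n = 4), followed by 2,6-diisopropylnaphthalene, a beta-only chemical of day 2 (4.53 ± 1.26), and 1,7-dimethylnaphthalene (3.94 ± 0.27). fabp11b was lowest in 1,2-dimethylnaphthalene (9.42 ± 0.16), followed by the beta-only 2-butylnaphthalene (9.78 ± 0.38).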

How the data were processed

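Zebrafish whole-embryo RNA was profiled with the TempO-Seq S1500+ panel. Per the labels and the study's methods, the authors obtained counts with TempO-SeqR, summed probes per gene, corrected for exposure day with ComBat_seq, normalized by upper quartile in edgeR (build GRCz11; versions are not given in the sources used here) and removed 1 day 1 control pool. The deposited values are log2 CPM of 3068 genes in 93 of 94 labelled samples, with a prior count of 2. Reads were recovered from them within 0.02 reads for 100% of values. They are counts after the batch correction and not the raw sequenced reads. A read was worth 0.0825 to 0.132 CPM in the 16 pools. The deposited comparisons (log2 fold changes, p-values) were not used.

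limma 3.58.1 (R 4.3.3) was fitted to all 93 samples in 23 groups without covariates, with Benjamini-Hochberg adjustment over 3068 genes, or over the genes of all 6 pairs. The paper describes pools taken by vial group, but lists more pools collected per treatment than vials left after those kept for morphology. Whether each pool of an isomer came from a separate vial is therefore not settled, and independence beyond that is not stated. The p-values measure the spread between pools. Exact permutation tests used scipy 1.17.1. Batch correction can shrink or add differences between days, but the 4 isomers share a day. The comparisons with control do not, as 3 of the 5 control pools are of day 2, so exposure and day are partly mixed there. Replicate letters did not pair pools (same-letter correlations -0.20 to 0.16). Alternatives covered pseudocount, low-value filter, scaling, samples fitted, trend, voom, letter block and single pools or isomers left out. Scripts were tested on simulated data. 1 gene with a number for a name was tested and not named.

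The isomers, gene lists and tests were chosen with earlier results of these data known. Named are the 20 genes with the smallest class p, genes called in a pair and DEGs (up to 5 by p each), and up to 3 per list by p. Also named are genes given by the study, such as fkbp5, klf9, klf11a, fgfbp2b and ctss2.1. CYP1, clock and some other genes were added by choice and not taken from the study. atf3, junba, tiparp, nqo1, cyp1d1 and angptl4, called among other chemicals, were named after their values were seen. The 20 lists were glucocorticoid receptor response, circadian clock, AhR response, immediate early genes, xenobiotic metabolism, oxidative stress, hedgehog and cartilage, skeletal muscle, heart, retina and lens, neurons and glia, erythrocytes and haem, immune cells, liver with pancreas and gut, skin with notochord and matrix, lipids and sterols, cell cycle, heat shock, hypoxia and glycolysis, and purinergic signalling.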

Additional observations from a re-analysis of the deposited data

Results flagged for a closer look

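Of 108 groups of 4 or 5 pools examined for a single far value (20 genes and 2 library measures), 11 were marked because 1 pool stood far from the rest of its group by Dixon's criterion, which chance alone gives in about 1 in 20 groups. For cyp1a, 2,3-dimethylnaphthalene pool D stood at 2.57 log2 CPM, above the other 3 pools. For cyp1c1, 1,2-dimethylnaphthalene pool B stood at 3.63, below its group. fkbp5 in control day 1 pool A was at 3.99, below the other controls, and junba in the same pool was at 6.10, above them. ctsla in 1,2-dimethylnaphthalene pool C was at 11.79, below its group, and tdo2b in 1,8-dimethylnaphthalene pool D was at 1.76, above it. ihha stood apart in 2,7-dimethylnaphthalene pool D (-0.58, above 3 pools without reads) and in 1,2-dimethylnaphthalene pool C (-1.75, below its group). slc2a1b was low in 2,3-dimethylnaphthalene pool B (1.20) and in control day 2 pool B (-0.36). Among the library measures, 1,2-dimethylnaphthalene pool C had 452 genes without reads, more than the other 3 pools of that isomer. The part of these pools in the class differences was not tested beyond leaving out each exposed pool.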

How the results depend on the processing

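The class count of 0 genes was 2 with log2(CPM + 4) (cyp1a and fabp11b), 1 (cyp1a) with only the 4 isomers in the fit, also with a robust prior chosen after seeing the data, 1 (fabp11b) with only day 1 samples, a mean-variance trend or voom, 5 without 1,2-dimethylnaphthalene (cryz, ier2b, masp2, stimate and ube2a), 1 (fabp11b) without 1,8-dimethylnaphthalene, and 0 to 1 with any single pool left out (1 without 1,2-dimethylnaphthalene pool B, 2,3-dimethylnaphthalene pool B or 2,7-dimethylnaphthalene pool C). With a 2-fold threshold it was 0, and 1, 1 and 4 with log2(CPM + 4), only the 4 isomers and without 1,2-dimethylnaphthalene. The pairs between classes gave 2 calls, and 7 with log2(CPM + 4), 0 with centred samples, 4 with voom and 0 to 5 with a pool left out (5 and 4 without 1,8-dimethylnaphthalene pool A or B). The pairs within a class gave 0, and 3, 1 and 1 with log2(CPM + 4), only the 4 isomers and voom, and 0 to 1 without a pool. The 42 control calls were 27 and 21 with log2(CPM + 4) and only the compared groups, 85 with day 1 controls and 22 to 54 without a pool. The other day 1 chemicals gave 1 call, and 2, 3, 9, 2, 2 and 2 with log2(CPM + 4), genes of at least 1 CPM, only the compared groups, day 1 samples, trend and voom. The cause was not tested.

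Of 1268 values of 47 single-gene results, 1215 kept direction and side of the threshold, 20 lost and 27 gained a call, and 6 turned sign, all with 1 pool left out. Over single pools left out socs3a ranged between the classes from -0.0087 to 0.82, atf3 from -0.29 to 0.0194, and fabp11b in 2,7- minus 2,3-dimethylnaphthalene from -0.14 to 0.051. The letter as replicate block gave 0 class calls, 2 and 0 pair calls and 46 control calls. A count test by edgeR's quasi-likelihood was planned and not run, because a log2 unit was deposited. Genes of few reads carry wide intervals, which limits what the class comparison could detect.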
